A study of Mus musculus with 5 samples.

Results

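Receptors for the cytokines of the IL-6 family are built around gp130, a signalling chain encoded by Il6st, and 8 genes were taken as the family's receptor subunits in mouse colon: Il6st, Osmr, Lifr, Il27ra, Il31ra, Il11ra1, Il6ra and Cntfr. They were chosen by name, with earlier results of these data known, and no measured value decides membership. All probes of these genes on the arrays were followed, which gave 14 of 56605 probes. Of the 8 genes, 7 had signal well above background and were tested among 32917 features, and Il31ra was not tested.

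In this family the subunits divide by role. Il6st, Osmr, Lifr, Il27ra and Il31ra encode chains whose cytoplasmic parts bind Janus kinases (JAKs) and recruit STAT factors, above all STAT3, whereas Il11ra1, Il6ra and Cntfr encode chains that bind the ligand and depend on gp130 for signalling. IL-6 and IL-11 signal through gp130 alone once bound to their own chain, LIF and CNTF through gp130 with LIFR, oncostatin M through gp130 with OSMR, and IL-27 through gp130 with the chain encoded by Il27ra, while IL-31 uses OSMR with the chain encoded by Il31ra. In the gut these receptors are known for roles in epithelial repair, in activation of fibroblasts and in inflammation.

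The samples were whole colons of wild-type mice of strain C57BL/B6, aged 8 weeks per the study. The 3 mice of the group NT-3N 3hr were given NT-3N, which stimulates the IL-11 receptor, into a vein 3 hr before the colon was taken, and the 2 Control mice are not labelled as injected with a vehicle, so injection and agonist cannot be told apart. The dose was 10 mg per mouse in the design text of the series and 10 microgram in the study's methods, and which applies was not tested. NT-3N is an altered form of human IL-11, which binds the product of Il11ra1. Each mouse gave 1 single-colour Agilent array, and the comparison asks which of the receptor genes changed in the colon after stimulation of one of these receptors.

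The arrays lay on 1 slide with 1 scan time. Between 70.6% and 72.9% of probes were well above background per array, no spot was saturated, and the arrays correlated at 0.980 to 0.992 across probes, with 0.984 for the controls. All 8 smooth muscle and all 8 epithelial marker genes examined were above background. Values below are log2 processed signal after quantile normalization. Probes differ in how brightly they read a transcript, so levels can be compared between arrays for 1 probe but the 8 genes cannot be put in order of level.

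Promoter sequence is shown for the gene with the largest change, Osmr, for the shared chain, Il6st, and for Il31ra, which alone among the members with an entry held a STAT-type motif. In the 250 bases before the annotated start, TTCNNNGAA, the consensus recognised by STAT3 and its relatives, was found in 2306 of 32851 promoters (7.02%) of a RefSeq table of build GRCm38.p6, and in 1 of the 14 promoters listed for 7 members. Il27ra had no entry. Capitals mark TTCNNNGAA, which reads alike on both strands, the CCAAT box and the GC box GGGCGG, the last 2 searched on both strands. These windows do not bear on elements farther from the start, and for a gene with several starts only the listed ones were searched. The Il6st window (chr13:112463820-112464069, plus strand) held 2 CCAAT boxes, 65 and 33 bases before the start, and 1 GC box. The Osmr window (chr15:6874314-6874563, minus strand) held 2 GC boxes, and the Il31ra window (chr13:112580663-112580912, minus strand) held TTCNNNGAA 191 bases before the start.
Il6st: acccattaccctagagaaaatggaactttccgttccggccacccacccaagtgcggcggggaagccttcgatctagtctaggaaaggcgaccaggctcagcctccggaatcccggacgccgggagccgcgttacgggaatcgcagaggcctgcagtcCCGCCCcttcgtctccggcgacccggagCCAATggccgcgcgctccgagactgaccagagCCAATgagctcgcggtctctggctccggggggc
Osmr: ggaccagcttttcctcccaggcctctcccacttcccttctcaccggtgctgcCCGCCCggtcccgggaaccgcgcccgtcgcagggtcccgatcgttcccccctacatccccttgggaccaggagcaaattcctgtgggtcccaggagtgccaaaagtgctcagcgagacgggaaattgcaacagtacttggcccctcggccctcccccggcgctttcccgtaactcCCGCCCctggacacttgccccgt
Il31ra: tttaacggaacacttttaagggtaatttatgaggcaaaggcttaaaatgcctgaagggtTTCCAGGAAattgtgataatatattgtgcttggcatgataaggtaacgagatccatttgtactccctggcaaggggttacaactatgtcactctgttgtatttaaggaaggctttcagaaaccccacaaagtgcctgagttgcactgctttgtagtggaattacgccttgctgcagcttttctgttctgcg
CCAAT was present in 33.8% and GGGCGG in 32.7% of all promoters, and in 3 and 7 of the 14 promoters of the members. By gene, 3 and 5 of the 7 members with an entry held them. Cntfr alone has 6 listed promoters, and some of their windows overlap, so that the same GC boxes were counted more than once. In the same annotation Il6st and Il31ra are direct neighbours on chromosome 13, and Osmr and Lifr lie on chromosome 15 with no protein-coding gene between them. Cntfr and Il11ra1 lie on chromosome 4 with 5 protein-coding genes between them.

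Among the receptor subunits, Osmr rose and no other member passed the test. By limma with an adjusted p under 0.05, 1 of the 7 tested members was higher and 0 were lower, where 0.143% of all features were called and 0.125% were called higher. The differences ran in both directions: 5 members had a higher mean in NT-3N and 2 a lower one, with a median log2 fold change of 0.18 against -0.02 over all features. At an unadjusted p under 0.05 there were 3 members, Osmr and Il6st higher and Il6ra lower, where 9.62% of all features fell. The arrays of the groups did not overlap for 4 members, Osmr and Il6st upward and Il6ra and Il11ra1 downward, where 28.4% of all features showed no overlap. Whole colon mixes many cell types, so a lower signal from fewer cells of a type and from less RNA per cell cannot be told apart, nor can the reverse.

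**Figure D1:**
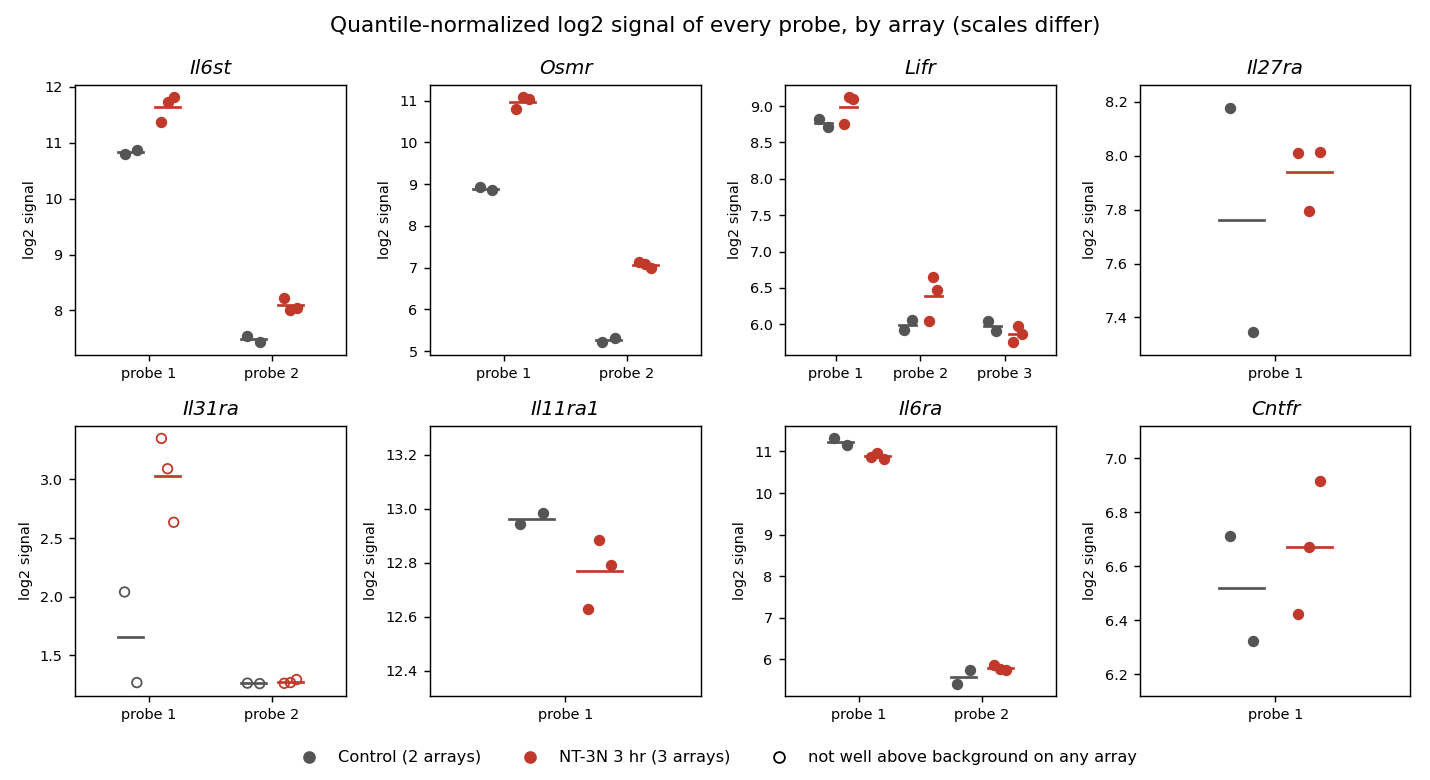
Each panel plots 1 receptor gene, with a column pair for each of its probes; points are arrays and short lines group means, as log2 normalized signal on a scale that differs between panels. Both probes of Osmr and of Il6st lie higher in all 3 NT-3N arrays than in both Control arrays, whereas both Il31ra probes (open circles) were not well above background on any array.

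Osmr encodes the OSMR chain, which pairs with gp130 in the receptor for oncostatin M. Its brighter probe read 8.92 and 8.85 in the Control arrays and 10.80, 11.08 and 11.05 in the NT-3N arrays. All NT-3N arrays lay far above both controls, and the spread within each group was small beside the gap. The means were 8.89 ± 0.050 (SD, n = 2) and 10.98 ± 0.16 (SD, n = 3). The signal rose 4.26-fold, a log2 fold change of 2.09 ± 0.12 (SE) with a 95% interval of 1.80 to 2.38 (limma adjusted p = 0.00574), and Osmr ranked 8 by p among all features. Before any scaling between arrays the same probe gave processed signals of 441 and 477 in Control and of 1558, 2539 and 2281 in NT-3N.

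The second Osmr probe gave the same picture at a lower brightness. It read 5.21 and 5.31 in Control and 7.13, 7.10 and 6.99 in NT-3N, again with no overlap. Fitted among all 41590 probes, it had a log2 fold change of 1.81 ± 0.15 (SE) and a 95% interval of 1.45 to 2.17 (limma adjusted p = 0.0184). In that fit both Osmr probes were called, and they were the only 2 of the 12 tested member probes, where 0.13% of all probes were called higher. The call on Osmr was lost in 5 of 18 alternatives: without NT-3N replicate 2 (adjusted p = 0.0504) or NT-3N replicate 3 (0.078), with no filter on dim probes (0.0718), without the intensity trend (0.0569) and with the replicate block (0.349). In these 5 it had a log2 fold change of 2.03 to 2.09. Neutrophil markers did not share a direction. Of 6 genes 3 were tested, and 0 were called. In NT-3N 2 had a higher mean, with log2 fold changes of 2.67 and 5.59, and 1 had a lower one, with -0.57. The log2 of the summed signal was 5.66 and 5.58 in Control and 8.91, 6.97 and 7.35 in NT-3N. Cxcr2, a defining receptor of these cells, was above background on no array. NT-3N replicate 1 was the highest array for this summed signal. It was the lowest of the NT-3N arrays for the brighter probes of Osmr and Il6st and the highest for their second probes. The part of neutrophils in the Osmr, Il6st, Csf2rb and Csf2rb2 values was not tested.

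Il6st encodes gp130 itself. The brighter probe read 10.79 and 10.87 in Control and 11.37, 11.73 and 11.82 in NT-3N. The groups did not overlap, with NT-3N replicate 1 nearest to the controls. Means were 10.83 ± 0.056 (SD, n = 2) and 11.64 ± 0.24 (SD, n = 3), and the log2 fold change of 0.80 ± 0.15 (SE) had a 95% interval of 0.45 to 1.16. This 1.74-fold difference did not pass over all features (limma adjusted p = 0.172). Without NT-3N replicate 1 the log2 fold change was 0.94 and passed (adjusted p = 0.0367).

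The second Il6st probe read 7.54 and 7.43 in Control and 8.23, 8.01 and 8.04 in NT-3N. It too showed no overlap, and here NT-3N replicate 1 was the highest array, not the lowest. Its log2 fold change was 0.61, with a 95% interval of 0.30 to 0.92 and an adjusted p of 0.216 in limma over all probes. Both probes of the shared chain thus gave a higher mean in NT-3N, of a size that the intervals place between 0.30 and 1.16.

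Lifr encodes the LIFR chain, the partner of gp130 for LIF and CNTF, and 3 probes read it. The brightest gave 8.82 and 8.72 in Control and 8.75, 9.12 and 9.10 in NT-3N. NT-3N replicate 1 lay between the controls and the other two lay above them, so the groups overlapped. The log2 fold change was 0.22, with a 95% interval of -0.14 to 0.58 (limma adjusted p = 0.682), an interval whose upper end lies far below the 1.80 at the lower end for Osmr. The other Lifr probes had log2 fold changes of 0.40 and -0.12, with 95% intervals of -0.13 to 0.92 and -0.53 to 0.29. All 3 overlapped between the groups, and they did not share a direction.

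Il27ra encodes the chain that joins gp130 in the receptor for IL-27, a receptor best known from lymphocytes. The controls were far apart, at 8.18 and 7.35, and the NT-3N arrays, at 8.01, 7.79 and 8.01, lay between them. The log2 fold change was 0.18 with a 95% interval of -0.43 to 0.78 (limma adjusted p = 0.847). Leaving out Control replicate 2 turned it to -0.24 and leaving out Control replicate 1 raised it to 0.59, so its sign depended on a single array. The log2 of the summed signal of 6 B cell markers was also low in Control replicate 2, at 10.09, against 12.22 in Control replicate 1 and 12.11 to 12.38 in NT-3N; all 6 markers were above background and had a higher mean in NT-3N. For 6 T cell markers the same sum was 11.79 and 11.59 in Control and 11.95, 11.48 and 11.53 in NT-3N. Control replicate 2 thus lay within the range of the NT-3N arrays there, and 4 markers had a higher mean and 2 a lower one. The part of B cells or T cells in the Il27ra values was not tested.

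Il31ra encodes the partner of OSMR for IL-31. Neither of its 2 probes was well above background on any of the 5 arrays, so no fold is given. The signals were 2.04 and 1.27 in Control and 3.35, 3.09 and 2.63 in NT-3N for the first probe, and between 1.26 and 1.29 on every array for the second. The first probe was higher in all NT-3N arrays and the second was not, and neither signal could be told from background.

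Il11ra1 encodes the chain that binds IL-11, and so the chain that the agonist engages. Its 1 probe read 12.94 and 12.99 in Control and 12.63, 12.88 and 12.79 in NT-3N. All 3 NT-3N arrays lay below both controls, by a small margin for NT-3N replicate 2. The log2 fold change of -0.20 ± 0.098 (SE) had a 95% interval of -0.43 to 0.04 and did not pass (limma adjusted p = 0.591). The mouse genome holds a near-identical copy, Il11ra2, which had no probe of its own here, so the share of this signal that comes from the copy is uncertain. All 8 marker genes of smooth muscle had a lower mean in NT-3N, with a median log2 fold change of -0.29, and the log2 of their summed signal was 18.79 to 18.83 in Control and 18.35 to 18.68 in NT-3N. Of 8 fibroblast markers 5 had a higher mean, with a summed signal of 16.01 to 16.15 in Control and 15.89 to 16.47 in NT-3N. The part of these cell types in the Il11ra1 signal was not tested.

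Il6ra encodes the IL-6-binding chain, and its 2 probes went opposite ways. The brighter read 11.31 and 11.16 in Control and 10.87, 10.96 and 10.83 in NT-3N, lower in every NT-3N array. Its log2 fold change was -0.35, with a 95% interval of -0.59 to -0.12 (limma adjusted p = 0.350). The dimmer probe read 5.42 and 5.73 in Control and 5.87, 5.78 and 5.74 in NT-3N, higher in every NT-3N array, although NT-3N replicate 3 and Control replicate 2 nearly met. Its log2 fold change was 0.22, with a 95% interval of -0.23 to 0.67 (adjusted p = 0.739 over all probes). With the mean of both probes the log2 fold change of Il6ra was -0.06, so the lower value of this gene rests on the brighter probe.

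Cntfr encodes the CNTF-binding chain, best known from neurons and muscle. Its 1 probe read 6.71 and 6.32 in Control and 6.42, 6.67 and 6.92 in NT-3N. The groups overlapped, and the log2 fold change of 0.15 had a 95% interval of -0.36 to 0.66 (limma adjusted p = 0.847). Without Control replicate 2 it was -0.04.

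**Figure D2:**
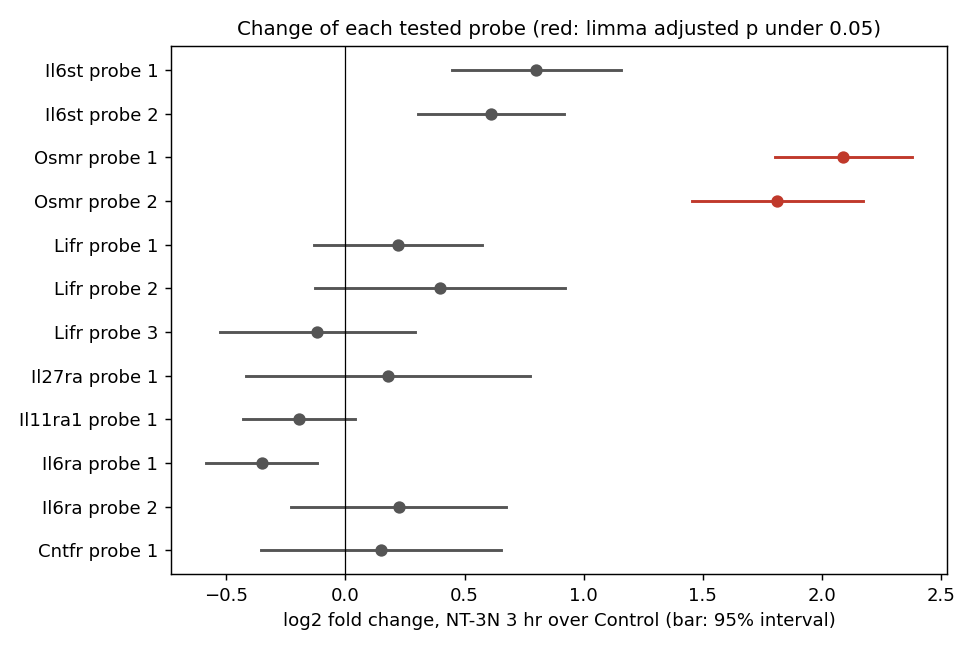
Points give the log2 fold change, NT-3N over Control, of each of the 12 tested probes in the fit over all probes, with bars for the 95% interval; red marks an adjusted p under 0.05. The intervals of both Osmr probes (1.45 to 2.38) lie above all others, those of both Il6st probes and of the brighter Il6ra probe exclude 0 without passing adjustment, and the 2 Il6ra probes point in opposite directions.

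A receptor of this family works as a set of chains, so 1 subunit was also set against another within each array. A constant scaling of an array cancels in such a difference, which quantile normalization, used here, need not do; with 75th percentile or median scaling Osmr minus Lifr differed between the groups by 1.89 (1.87 here) and Il6st minus Lifr by 0.60 (0.58 here). Osmr and Lifr were the clearest case. Osmr minus Lifr was 0.10 and 0.14 in the Control arrays and 2.05, 1.96 and 1.96 in the NT-3N arrays, a difference of 1.87 between the groups. The values were tight in both groups, and the gap was many times their spread.

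For the IL-11 receptor, Il6st minus Il11ra1 was -2.15 and -2.11 in Control and -1.26, -1.16 and -0.98 in NT-3N, a difference of 1.00 between the groups. For the IL-6 receptor, Il6st minus Il6ra was -0.52 and -0.29 in Control and 0.49, 0.77 and 0.99 in NT-3N, a difference of 1.15, or 0.77 with the mean of all probes of each gene. In both receptors the shared chain was higher relative to the ligand-binding chain in all 3 NT-3N arrays. The groups differed by 0.58 for Il6st minus Lifr and by -1.29 for Il6st minus Osmr, also with no overlap.

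Il6st minus Il27ra (0.62 between the group means) and Cntfr minus Lifr (-0.07) overlapped between the groups. With 5 arrays an exact two-sided permutation test cannot go below p = 0.1. The 5 pairs without overlap reached that value (0.14 after Benjamini-Hochberg adjustment over 7 pairs), and the others had an exact permutation p of 0.3 and 0.6, so no pair passed. Pairs share genes and are not independent, Osmr minus Il31ra was left out because Il31ra was at background, and these differences do not say which chain is in excess.

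**Figure D3:**
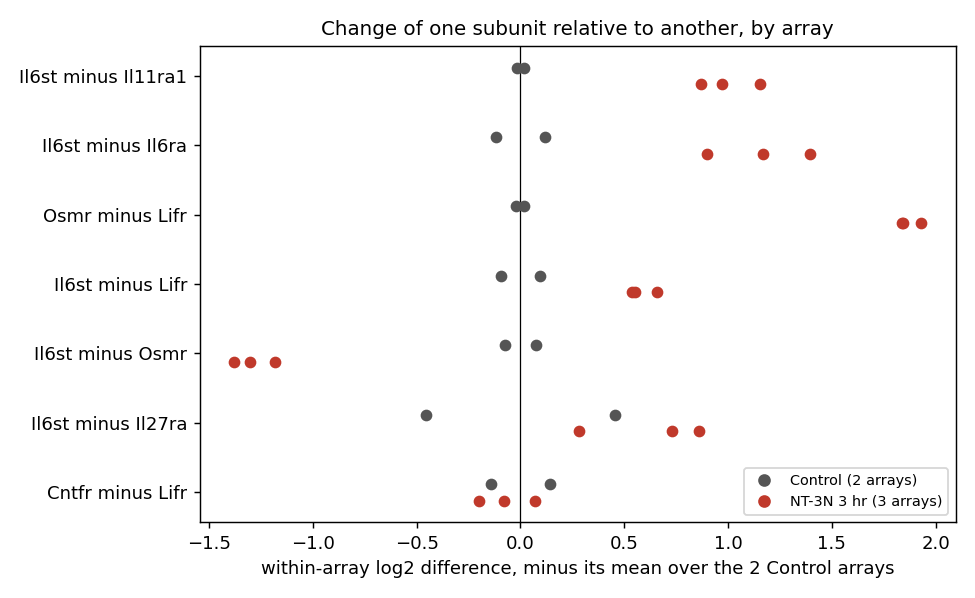
Each row plots the log2 difference between 2 subunits on each array after subtracting its mean over the Control arrays. For the first 5 pairs all 3 NT-3N arrays (red) lie on 1 side of both Control arrays (grey), farthest for Osmr minus Lifr with a difference of 1.87, and for the last 2 pairs the groups overlap.

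The nearest comparison for the members is the rest of the cytokine receptors that signal through JAKs. Of 33 such genes 32 were tested, with 19 higher and 13 lower in mean. In limma 0 were called and 4 had an unadjusted p under 0.05, where 9.62% of all features fell. Their log2 fold changes ran from -0.54 to 1.52, with a median of 0.10. The groups did not overlap for 13 of them, where 28.4% of all features showed no overlap. Osmr lay above this whole range, and the other 6 members lay inside it. Il20ra, counted among the 19, was above background on 2 of 3 NT-3N arrays and on neither control. It passed the filter on dim probes through NT-3N only, so its higher mean does not measure a change. The lowest p in limma belonged to Csf2rb2 and Csf2rb, near-identical genes for beta chains of cytokine receptors, whose probes may share signal. Their log2 fold changes were 1.52 and 1.01 (adjusted p 0.106 and 0.186). Of the 3 tested neutrophil markers, given beside Osmr, 2 had a higher mean in NT-3N and 1 a lower one.

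Ligands of the family were measured too. Of 12 ligand genes 11 were tested, 5 with a higher and 6 with a lower mean, a median log2 fold change of -0.08 and 0 called in limma, with 2 at an unadjusted p under 0.05. These were Il6 and Lif, and each passed the filter on dim probes through 1 group only. Their p-values therefore set signal against background and do not measure a change. Il6 was above background on 2 of 3 NT-3N arrays and on neither control. The lower bound on its increase in NT-3N was 2.72-fold. Lif was above background in both controls and on no NT-3N array. The lower bound on its decrease in NT-3N was 1.28-fold. Each bound sets the brighter group's mean against the mean, over the dimmer group's arrays, of the probe's own signal or of the lowest signal that counted as well above background, whichever was higher. Osm, the ligand of the receptor that Osmr builds, was dim and well above background on only 4 of the 5 arrays. It read 4.81 and 3.51 in Control and 4.88, 4.90 and 4.04 in NT-3N, and the groups overlapped.

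Of 14 genes for kinases, STAT factors, phosphatases and feedback inhibitors that act on these receptors, 2 were called, both higher. Socs3, whose product binds gp130 and blocks its signal, read 10.63 and 10.11 in Control and 12.88, 13.21 and 13.14 in NT-3N, a log2 fold change of 2.71 (limma adjusted p = 0.00875). Stat3 read 12.84 and 12.80 in Control and 13.61, 13.58 and 13.48 in NT-3N, a log2 fold change of 0.74 (adjusted p = 0.0434). Neither gene overlapped between the groups. Socs3 lost its call in 5 of 18 alternatives, which were those that ended the call on Osmr, with adjusted p of up to 0.47, and Stat3 lost it in 8, which were these 5, the mean of the probes (0.0567) and leaving out Control replicate 1 (0.184) or Control replicate 2 (0.164). The median of the list was -0.01 with 6 genes higher and 8 lower. Of 5 genes for shedding of receptor ectodomains, 0 were called in limma and 0 had an unadjusted p under 0.05; the lowest p were those of Rhbdf1 and of Adam17, the protease that cleaves the IL-6-binding chain, with log2 fold changes of -0.19 and -0.07.

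**Figure D4:**
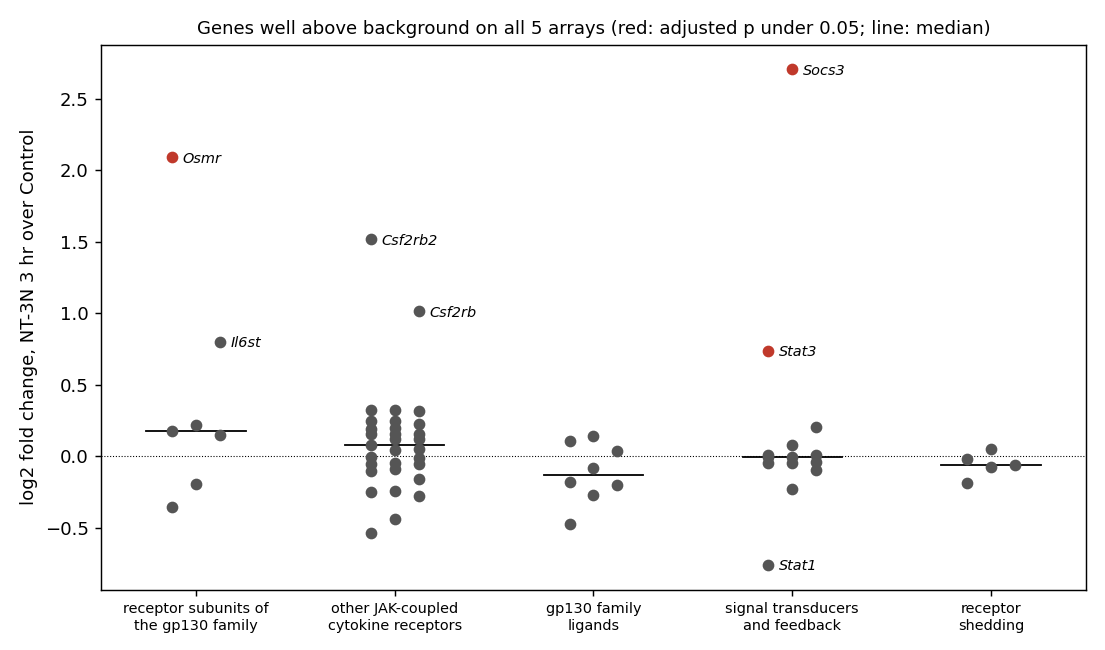
Points are log2 fold changes, NT-3N over Control, of genes well above background on all 5 arrays, for the receptor subunits and 4 related lists; lines are medians and red marks an adjusted p under 0.05. Osmr, at 2.09, lies above every other JAK-coupled receptor shown, of which the highest is Csf2rb2 at 1.52, and Socs3 and Stat3 are the other called genes.

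Genes with a pattern most like those of Osmr and Il6st were sought among 16733 genes with a symbol and signal above background on all 5 arrays, by the root mean square distance between log2 values centred over the arrays. Nearest to Osmr were Gem, a small GTPase, at 0.109, Ch25h, which hydroxylates cholesterol, at 0.117, Dnah17, a dynein heavy chain, and Ctps, which makes CTP, both at 0.118, and Lrg1, a secreted glycoprotein, at 0.162. These distances are small beside the standard deviation of Osmr itself over the arrays, 1.15. Nearest to Il6st, whose standard deviation was 0.471, were Chl1, a cell adhesion gene, at 0.0355, A4galt, a glycolipid galactosyltransferase, at 0.0416, Wdr63 at 0.0681, Myc, a transcription factor gene, at 0.071 and Slc41a1, a magnesium transporter gene, at 0.0716. The genes near Osmr had log2 fold changes of 1.92 to 2.14 and were all called, as genes chosen for likeness to a called gene would be. Those near Il6st had log2 fold changes of 0.69 to 0.91, with adjusted p of 0.196 to 0.225.

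How far the values moved with the processing differed between members. Osmr kept a log2 fold change of 1.94 to 2.18 over 18 alternatives and was called in 13 of them. Il6st lay between 0.71 and 0.94, with an unadjusted p under 0.05 in all 18 and a call in 3. Il6ra lay between -0.43 and -0.06 and Il11ra1 between -0.25 and -0.13, with a call in none. Lifr stayed between 0.15 and 0.34, also with no call.

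**Figure D5:**
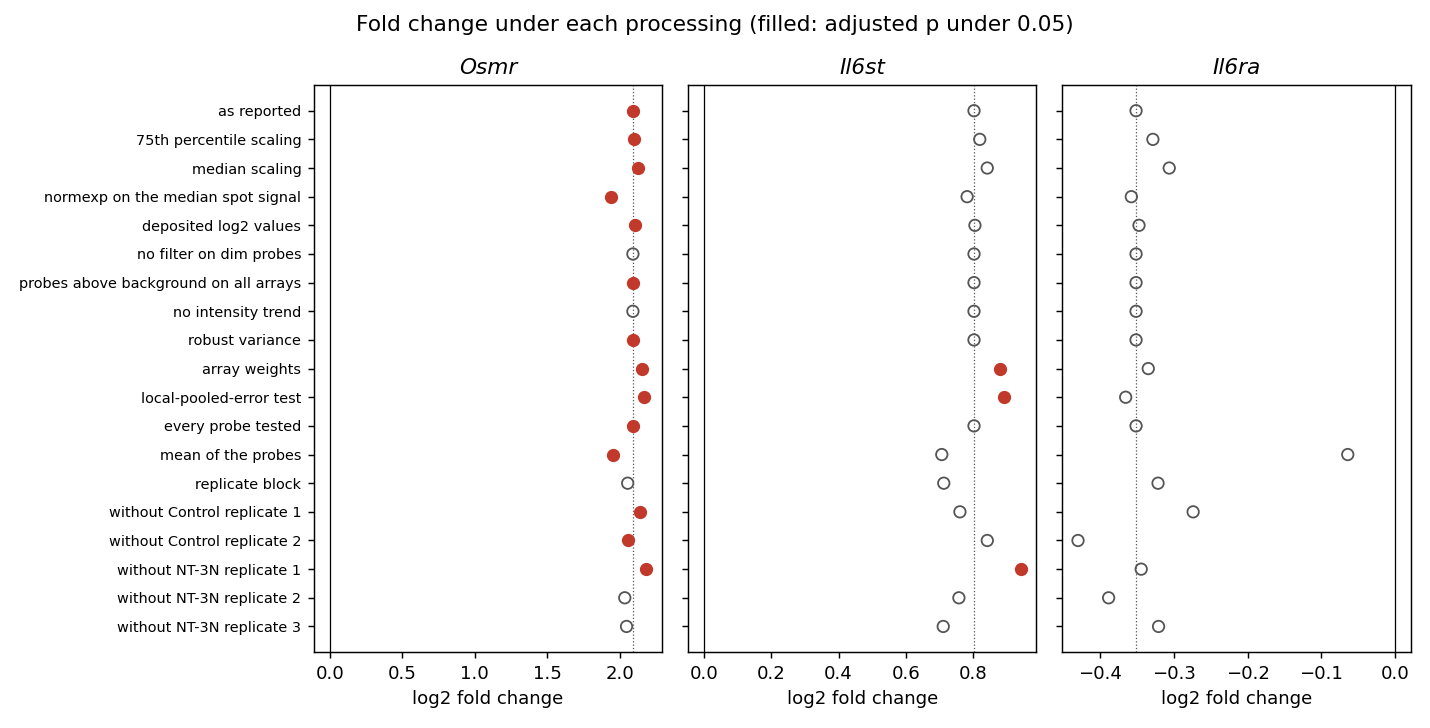
Each panel gives the log2 fold change of 1 gene, as reported and under each of 18 alternatives; filled red points had an adjusted p under 0.05 and the dotted line marks the value as reported. Osmr stays between 1.94 and 2.18, Il6st between 0.71 and 0.94, and Il6ra moves nearest to 0, to -0.06, with the mean of its probes.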

How the data were processed

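Total RNA of whole colon was labelled with Cy3 and hybridised to single-colour arrays. The authors used Agilent Feature Extraction 11.0.1.1 to read the spots, and their deposited scanner output holds background-subtracted, detrended intensity, not scaled between arrays. The deposited log2 table holds quantile-normalized processed signal (r of at least 0.9999 with the scanner values over 37380 probes) and served as an alternative only. Depth does not apply to arrays; their number limits precision.

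Control spots and outlier flags (69 to 184 of 59305 spots per array) were removed, spots of a probe averaged, log2 values quantile-normalized, and probes kept that were well above background on at least 2 of 5 arrays. Accessions were matched to symbols in a RefSeq table of GRCm38.p6, which named 32994 of 56605 probes. The array design names another build, so no probe coordinates are given; promoter coordinates are those of the RefSeq table. A gene was represented by its brightest probe.

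NT-3N was tested against Control by limma 3.58.1, run in R 4.3.3 (lmFit, eBayes with intensity trend, two-sided, Benjamini-Hochberg over 32917 features), and each probe also in a fit over all probes. The study's methods name a local-pooled-error test; limma was preferred because it likewise pools the spread over features and gives adjusted p-values, and the other test was an alternative. Tests were tested on simulated data. Pairs of subunits were compared by exact permutation.

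All 8 members were named, with, from each list, the called genes or else the 2 with the lowest p, and the 5 genes nearest in pattern to each of 2 members. Other genes were not singled out, except Osm, which was chosen after its values were seen, and Il20ra, named for its background flags. Members and lists were chosen with earlier results of these data known. No protein sequence is shown. Figures used matplotlib 3.10.9.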

Additional observations from a re-analysis of the deposited data

How the results depend on the processing

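The arrays are few, and p-values measure only the spread between these arrays, and with 1 Control array left out the spread of the other is taken from the NT-3N arrays. All alternatives were planned; normexp used the median spot signal, since the files hold no mean. Scalings moved the median of all features by under 0.1.

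In limma the 1 called member became 0 with no filter on dim probes, 0 without the intensity trend and 2 with array weights; it was 2 with the local-pooled-error test. The 47 called features became 2, 2, 170 and 384 in the same order, and the 2 called list genes became 0, 0, 4 and 5, and 1 with the mean of the probes. Without each array in turn, called members ranged from 0 to 2, features from 0 (without NT-3N replicate 3, where 2384 had an unadjusted p under 0.05) to 118 (without Control replicate 2), and list genes from 0 to 3. Features called numbered 31 without Control replicate 1, 87 without NT-3N replicate 1 and 1 without NT-3N replicate 2.

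Osmr kept its log2 fold change of 2.09 but not its call with no filter (limma adjusted p = 0.0718) and without the trend (0.0569), and ranged from 2.03 to 2.18 without each array. Il6st passed at 0.88 with array weights (0.0365) and at 0.89 with the local-pooled-error test (0.0137), and ranged from 0.71 to 0.94 without each array, passing without NT-3N replicate 1. Without each array Cntfr ranged from -0.043 to 0.35 and Il27ra from -0.24 to 0.59, both negative without Control replicate 2, and Cntfr minus Lifr from -0.21 to 0.073, positive without Control replicate 1. The other members kept their sign and side of the threshold, and the other pairs their sign, in every alternative run on them. No pair could pass in any alternative, because the exact permutation p cannot go below 0.1. The cause was not tested.

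The replicate numbers were not shown to pair the mice: same-numbered arrays deviated together at 0.13 and 0.036 over 2 pairs. With the replicate block, which leaves out NT-3N replicate 3, limma called 0 members, 0 list genes and 0 features, with 2497 features at an unadjusted p under 0.05, and Osmr had a log2 fold change of 2.05 (adjusted p = 0.349).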
